A study of Homo sapiens with 30 samples.

Results

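The ATP-binding cassette (ABC) transporters ABCA1, ABCB1, ABCC1, ABCC3, ABCC4, ABCC5, ABCE1, and ABCG2 were followed in SH-EP cells with and without exogenous MYCN. They were chosen by gene symbol, and each of the 8 symbols had a value, out of 26228 genes listed. The RNA-Seq libraries came from 5 lines of 1 origin. Parental SH-EP is an established neuroblastoma (NB) cell line in which MYCN is neither amplified nor expressed. The 4 derived lines stably carry a retroviral transgene for WT MYCN or for MYCN with the phosphorylation-site changes T58A, S62A, or T58A S62A, driven by an exogenous promoter rather than by the MYCN locus. Each line was grown with DMSO, or with 1 μM CYC065, an inhibitor of CDK9 and CDK2, for 6 hours, and each line and treatment had 3 libraries, which makes 30 in all. Whether the derived lines are clonal, and whether the 3 libraries came from separate cultures, is not stated, so the p-values measure only the spread between these libraries, which may be technical.

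ABC transporters use ATP to move substrates across membranes, and several of them export cytotoxic drugs from tumor cells. In NB, MYCN and its paralog have been studied as regulators of several ABC genes, and the MYCN protein binds with its partner MAX to short DNA elements called E-boxes, of which CACGTG is the canonical form. ABCB1 (P-glycoprotein) and ABCG2 export many hydrophobic drugs. ABCC1, ABCC3, ABCC4, and ABCC5 are multidrug resistance proteins that export organic anions: glutathione conjugates in the case of ABCC1, bile salts and glucuronides for ABCC3, and cyclic nucleotides and nucleotide analogs for ABCC4 and ABCC5. ABCA1 passes cholesterol and phospholipid to apolipoprotein A-I. ABCE1 is the exception in the group, a cytosolic protein that transports nothing and instead splits ribosomes into their subunits after termination.

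Values are given as FPKM, fragments mapped to a gene per kilobase of its length and relative to the size of the library. MYCN was listed at 0 in all 6 SH-EP libraries and at 5.08 to 15.7 FPKM in the 12 DMSO libraries of the MYCN lines. SH-EP carried the mesenchymal label in its genes: all 8 mesenchymal markers examined had a mean of at least 1 FPKM, with a sum of 3293 to 3427 FPKM per DMSO library, against 2 of 8 adrenergic markers, with a sum of 9.19 to 11.1. In the MYCN lines the 8 mesenchymal markers summed to 1713 to 2440 FPKM and the adrenergic ones to 5.01 to 10.5, and PHOX2A and HAND1 were at 0 in every DMSO library. The part of this lower mesenchymal sum in the differences between lines was not tested. VIM alone made up most of it, at 2425 to 2540 FPKM in SH-EP and 1305 to 1933 in the MYCN lines. GATA3 made up most of the adrenergic sum in SH-EP (8.05 to 9.33 FPKM). In all 4 lines at once, limma called 5 of the 8 mesenchymal markers lower and 1, FOSL1, higher, against 13.4% and 19.2% of genes. TWIST1 and YAP1 were in neither group. Read totals are unknown, and the low values give a relative depth of 0.473 to 1 in DMSO and 0.295 to 0.559 with CYC065, where 1 is the deepest library. The 6 SH-EP libraries share index sequences with MYCN-line libraries, and the labels name no sequencing pools. If SH-EP was sequenced apart from the MYCN lines, a difference between pools cannot be told apart from one between SH-EP and these lines.

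In SH-EP cells in DMSO, ABCE1 was the most abundant of the 8 genes, at 61.1 ± 2.27 FPKM (mean ± SD, n = 3). ABCC1 followed at 19.6 ± 1.41, ABCC5 at 9.20 ± 0.436, and ABCB1 at 6.88 ± 0.357 FPKM. ABCC3 was at 4.81 ± 0.0548, ABCC4 at 4.26 ± 0.520, ABCA1 at 1.51 ± 0.135, and ABCG2 at 0.515 ± 0.112 FPKM. In these SH-EP DMSO libraries each gene lay above the next in all 3 libraries without overlap. ABCC4 moved up this order in the MYCN lines, from rank 6 in SH-EP to rank 3 in the WT and S62A lines and rank 4 in T58A and T58A S62A. Its libraries overlapped with those of ABCC5 in T58A, and with those of both ABCC5 and ABCB1 in T58A S62A. ABCA1 ranked last in 3 of the 4 MYCN lines in DMSO. In T58A S62A it ranked above ABCG2, with overlapping libraries.

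**Figure D1:**
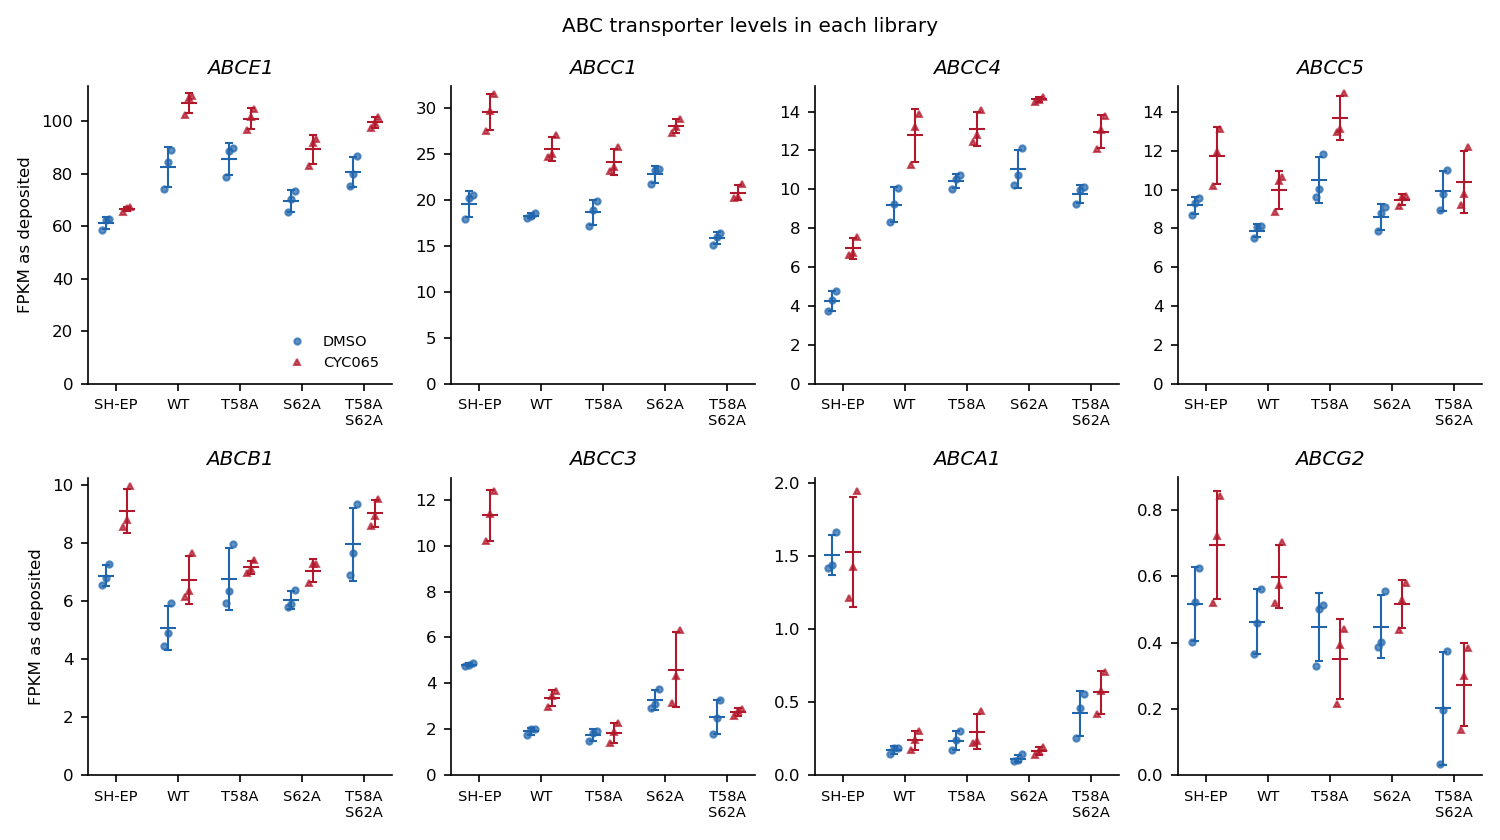
FPKM as deposited (vertical axes, from 0, scaled per gene) of the 8 ABC transporters in SH-EP and in the MYCN lines WT, T58A, S62A, and T58A S62A. Points are libraries, blue circles for DMSO and red triangles for 1 μM CYC065, and bars are the mean ± SD (n = 3 each); ABCC4 lay between 8.31 and 12.1 FPKM in the 12 MYCN-line DMSO libraries and between 3.73 and 4.76 in SH-EP.

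The first question was what exogenous MYCN changed in DMSO. ABCC4 and ABCE1 were higher than in SH-EP in all 4 MYCN lines, ABCC3 was lower in all 4, and ABCC1, ABCC5, and ABCB1 did not move in a shared direction. ABCA1, too low for the test across genes, was also lower in every MYCN line. The promoters of genes of both directions are shown first. Sequences 250 bases long, ending at the annotated start site, were taken from RefSeq (GRCh38.p14) for 6 of the 8 genes, 11 windows in all, and placed on GRCh37 by their exact and only match there. No window was at hand for ABCC1 and ABCC3. The canonical E-box and the variants CACGCG (or CGCGTG on the other strand) and CATGTG (or CACATG) were searched on both strands, and matches are in capitals. ABCC4 (higher; chr13:95953706-95953955, minus strand), ABCE1 (higher; chr4:146019213-146019462, plus strand), and ABCA1 (lower; chr9:107690437-107690686, minus strand) each hold 1 match.
ABCC4: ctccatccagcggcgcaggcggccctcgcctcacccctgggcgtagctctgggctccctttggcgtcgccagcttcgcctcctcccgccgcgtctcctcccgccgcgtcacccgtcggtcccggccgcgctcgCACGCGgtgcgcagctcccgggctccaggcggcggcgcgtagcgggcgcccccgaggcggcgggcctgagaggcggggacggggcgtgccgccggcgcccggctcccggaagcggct
ABCE1: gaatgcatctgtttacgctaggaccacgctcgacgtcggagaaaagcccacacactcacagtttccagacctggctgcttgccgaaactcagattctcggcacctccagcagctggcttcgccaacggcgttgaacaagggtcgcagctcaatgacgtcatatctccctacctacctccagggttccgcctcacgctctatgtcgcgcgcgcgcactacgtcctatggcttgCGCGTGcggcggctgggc
ABCA1: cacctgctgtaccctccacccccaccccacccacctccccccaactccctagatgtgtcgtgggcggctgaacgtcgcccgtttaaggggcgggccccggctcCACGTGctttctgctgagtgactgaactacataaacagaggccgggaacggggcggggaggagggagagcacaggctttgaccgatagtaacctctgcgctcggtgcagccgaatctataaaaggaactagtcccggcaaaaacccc
The last 24 bases of the ABCC4 window and the last 23 of the ABCE1 window lie in an exon of the same gene in GENCODE, and the ABCA1 window lies outside its exons. The 2 genes that rose hold CACGCG or its reverse complement, with the first base 117 bases before the start in ABCC4 and 18 bases before it in ABCE1, a motif found in 9.72% of 35116 RefSeq promoter windows of this length. The window of ABCA1, which fell, holds CACGTG at 147 bases before the start, present in 6.34% of windows. Of the other windows, 2 of the 5 for ABCG2, which overlap each other, hold this same CACGTG, at 171 and 121 bases before their start sites, and those of ABCB1 and ABCC5 hold none of the 3 motifs. CATGTG, present in 9.42% of windows, was found in 0 of the 11. A match is only a description of the letters, and binding was not examined.

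ABCC4 (chromosome 13, 95672089 to 95953729 of GRCh37, minus strand) was at 3.73, 4.30, and 4.76 FPKM in the 3 SH-EP DMSO libraries. The WT libraries were at 8.31, 9.24, and 10.1 FPKM, the T58A libraries at 10.0, 10.5, and 10.7, those of S62A at 10.2, 10.8, and 12.1, and those of T58A S62A at 9.23, 9.94, and 10.1. Every MYCN-line library lay above every SH-EP library. On the log2(FPKM + 0.1) scale, the WT line had 1.10 more ABCC4 than SH-EP (SE 0.09), T58A 1.28 more, S62A 1.36 more, and T58A S62A 1.18 more, with limma adjusted p-values of 5.26e-10 to 1.26e-11. The mean FPKM of the MYCN lines was 2.16 to 2.59 times that of SH-EP. For the mean of the 4 lines the difference was 1.23 (SE 0.07, adjusted p = 5.58e-13), against a median of 0.06 over all genes tested.

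ABCE1 (chromosome 4, 146019440 to 146050676, plus strand) overlaps OTUD4 and ANAPC10 on the opposite strand, and the libraries kept strand. Its SH-EP DMSO libraries were at 58.5, 62.2, and 62.7 FPKM. They were at 74.3, 84.3, and 89.2 FPKM in WT, 78.8, 88.6, and 90.0 in T58A, and 75.5, 80.0, and 86.8 in T58A S62A. The S62A libraries, at 65.3, 70.5, and 73.4 FPKM, were the closest to SH-EP but still above all 3 of its libraries. The log2 differences from SH-EP were 0.43 for WT, 0.49 for T58A, and 0.40 for T58A S62A (SE 0.07 each), with limma adjusted p-values of 9.81e-07 to 1.45e-05. In S62A the difference was 0.19 (SE 0.07, adjusted p = 0.0185). The S62A call was lost without SH-EP DMSO library 1 (0.16, adjusted p = 0.0836), S62A DMSO library 1 (0.15, 0.0929), or S62A DMSO library 3 (0.18, 0.0516).

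ABCC3 (chromosome 17, 48712138 to 48769614, plus strand) was at 4.77, 4.80, and 4.87 FPKM in the SH-EP DMSO libraries. It was at 1.73, 2.0, and 2.0 FPKM in WT and at 1.47, 1.85, and 1.93 in T58A. It was at 2.92, 3.11, and 3.75 FPKM in S62A and at 1.81, 2.51, and 3.28 in T58A S62A. All 12 MYCN-line libraries lay below the 3 SH-EP libraries. The log2 differences of ABCC3 from SH-EP were -1.29 for WT, -1.42 for T58A, and -0.94 for T58A S62A (SE 0.21 each), with limma adjusted p-values of 2.72e-06 to 0.000414. In S62A the log2 difference was -0.56 (SE 0.21, adjusted p = 0.0254). That call was lost without any of the SH-EP DMSO libraries (-0.55 to -0.56, adjusted p = 0.0517 to 0.0586), without S62A DMSO library 1 (-0.53, 0.0671), or without S62A DMSO library 2 (-0.48, 0.0896).

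ABCA1 (chromosome 9, 107543287 to 107690436, minus strand) had a mean under 1 FPKM over all libraries and was not in the fit across filtered genes. Its SH-EP DMSO libraries were at 1.42, 1.44, and 1.66 FPKM. The WT libraries were at 0.141 to 0.188, T58A at 0.168 to 0.301, S62A at 0.0926 to 0.143, and T58A S62A at 0.255 to 0.554 FPKM. Every MYCN-line library lay below every SH-EP library, and T58A S62A was the nearest to SH-EP. The difference of the 12 MYCN-line libraries from the 3 SH-EP libraries was -2.35 on the log2 scale, with an exact two-sided permutation p of 0.0022, the smallest that 455 arrangements can give (adjusted over 8 such tests, 0.00352). This permutation treats the 12 libraries as independent, although they come from 4 lines, so its p does not measure the spread between lines. The size of the difference depends on the pseudocount, since the MYCN-line values lie near 0.1, and was -1.03 with a pseudocount of 1 and -2.81 with 0.01. In a limma fit without the filter, the 4 lines were lower by 1.66 in T58A S62A to 2.92 in S62A, and 20.2% of the 19379 genes in that fit were called lower for the mean of the lines. ABCG2 (chromosome 4, 89011302 to 89152780, minus strand) was at 0.400 to 0.624 FPKM in SH-EP and at 0.0334 to 0.562 in the MYCN lines, with overlapping libraries. Its difference was -0.41 (exact permutation p = 0.273, adjusted 0.363), and only T58A S62A, at 0.0334, 0.197, and 0.374 FPKM, was called lower without the filter (-1.20, limma adjusted p = 0.00868), as were 17.5% of genes in that line.

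For the mean of the MYCN lines, the remaining 3 transporters were not called on the deposited scale (-0.06 for ABCC1, -0.12 for ABCB1, and -0.01 for ABCC5). ABCC1 (chromosome 16, 16042995 to 16237114, plus strand) was at 18.0 to 20.6 FPKM in SH-EP and 15.2 to 23.3 in the MYCN lines. It was higher in S62A (0.22, SE 0.06, limma adjusted p = 0.00555) and lower in T58A S62A (-0.30, adjusted p = 0.000314), and it was not called in WT (-0.10) or T58A (-0.07). Without SH-EP DMSO library 3 the S62A call was lost (0.16, adjusted p = 0.0531). ABCB1 (chromosome 7, 87132333 to 87342639, minus strand; RUNDC3B lies on the opposite strand) was at 6.57 to 7.27 FPKM in SH-EP and 4.44 to 9.36 in the MYCN lines. It was lower in WT (-0.44, SE 0.12, adjusted p = 0.00277) and was not called in the other MYCN lines (-0.19 to 0.20). ABCC5 (chromosome 3, 183637722 to 183735727, minus strand) was at 8.72 to 9.57 FPKM in SH-EP and 7.51 to 11.9 in the MYCN lines, and it was called in 0 of the 4 lines at an adjusted and at an unadjusted p under 0.05 (-0.22 to 0.19).

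Counted over the 6 genes that passed the filter and the 4 lines, 9 of 24 differences were called higher and 6 lower by limma at an adjusted p under 0.05. The background was 31.1% of genes higher and 23.3% lower over the same 4 contrasts, which share the SH-EP libraries. In all 4 lines at once, 2 of the 6 genes were higher and 1 was lower, against 19.2% and 13.4% of the 11575 genes tested. Of all 8 genes, 2 lay above SH-EP in every MYCN-line library and 2 below. Of the 11575 genes past the filter, which hold neither ABCA1 nor ABCG2, 21.8% lay above and 16.5% below in this way. The median difference of the 6 for the mean of the lines was -0.03, and that of all genes was 0.06. The counts of calls over lines stood near the background.

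These calls depend on the scale. When each library was set to equal levels of the ERCC spike-ins, which were added by cell number, the median log2 difference of the MYCN lines from SH-EP over all genes was -1.17, with 1.38% of genes called higher and 82.7% lower over the 4 contrasts. On that scale 0 of the 24 differences were called higher (also 0 at an unadjusted p under 0.05) and 21 lower. ABCC4 stood at 0.00 for the mean of the lines (adjusted p = 1), and was called in S62A alone (-0.57, adjusted p = 0.00778). ABCE1 was at -0.87, ABCC3 at -2.30, ABCC1 at -1.31, ABCB1 at -1.35, and ABCC5 at -1.25 (limma adjusted p-values of 1.93e-10 to 3.01e-07), and ABCA1, without the filter, at -3.61 (limma adjusted p = 3.43e-11). Relative to the median gene, ABCC4 was 1.17 above it, ABCE1 0.30 above it, and ABCC3 1.13 below it on the spike-in scale, and 1.17 above, 0.31 above, and 1.11 below on the deposited scale. Less RNA per cell and fewer cells in a lysate cannot be told apart here.

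**Figure D2:**
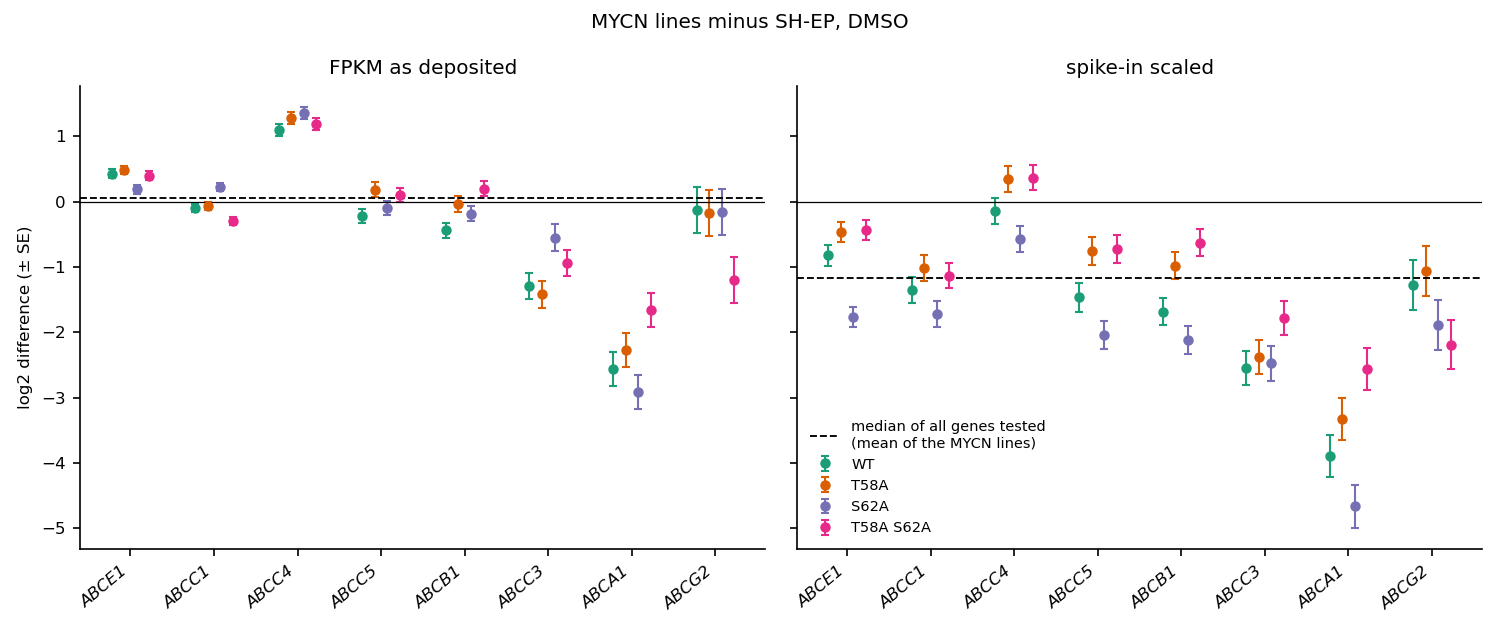
Log2 difference (± SE, vertical axis) of each MYCN line (colors) from SH-EP in DMSO for the 8 genes, on FPKM as deposited (left) and after scaling to the spike-ins (right). ABCA1 and ABCG2 are from the fit without the filter on low values, and the dashed line is the median of all genes tested for the mean of the MYCN lines, 0.06 on the left and -1.17 on the right.

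A ratio of 2 genes within a library does not depend on how libraries are scaled to each other. With a pseudocount of 0.1 this holds closely only for genes well above it, which ABCA1 in the MYCN lines is not. The differences below are on FPKM as deposited, and spike-in scaling was not run for them. ABCC1 exceeded ABCC3 by log2 differences of 1.86, 2.05, and 2.09 in the SH-EP DMSO libraries. It did so by 3.20 ± 0.11 with WT MYCN, 3.35 ± 0.23 with T58A, 2.78 ± 0.24 with S62A, and 2.64 ± 0.37 with T58A S62A (SD, n = 3 each), so the balance shifted away from ABCC3 in each line. The shift of the 12 libraries was 0.99 (exact permutation p = 0.0022, adjusted 0.00352), and the limit of this test given for ABCA1 holds here too. ABCC4 was close to ABCC3 in SH-EP, at -0.35, -0.18, and -0.01, and exceeded it by means of 1.73 to 2.52 in the MYCN lines. ABCE1 minus ABCA1 was 5.15, 5.27, and 5.35 in SH-EP and had means of 7.32 to 8.36 in the MYCN lines, a shift of 2.73 (exact permutation p = 0.0022, adjusted 0.00352), or 1.40 with a pseudocount of 1 and 3.19 with 0.01. The lowest MYCN-line DMSO library was at 6.85, above the highest of SH-EP. This separation follows from the single genes, since ABCE1 lay above and ABCA1 below SH-EP in every MYCN-line DMSO library. The p-value of this pair therefore adds nothing to them.

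**Figure D3:**
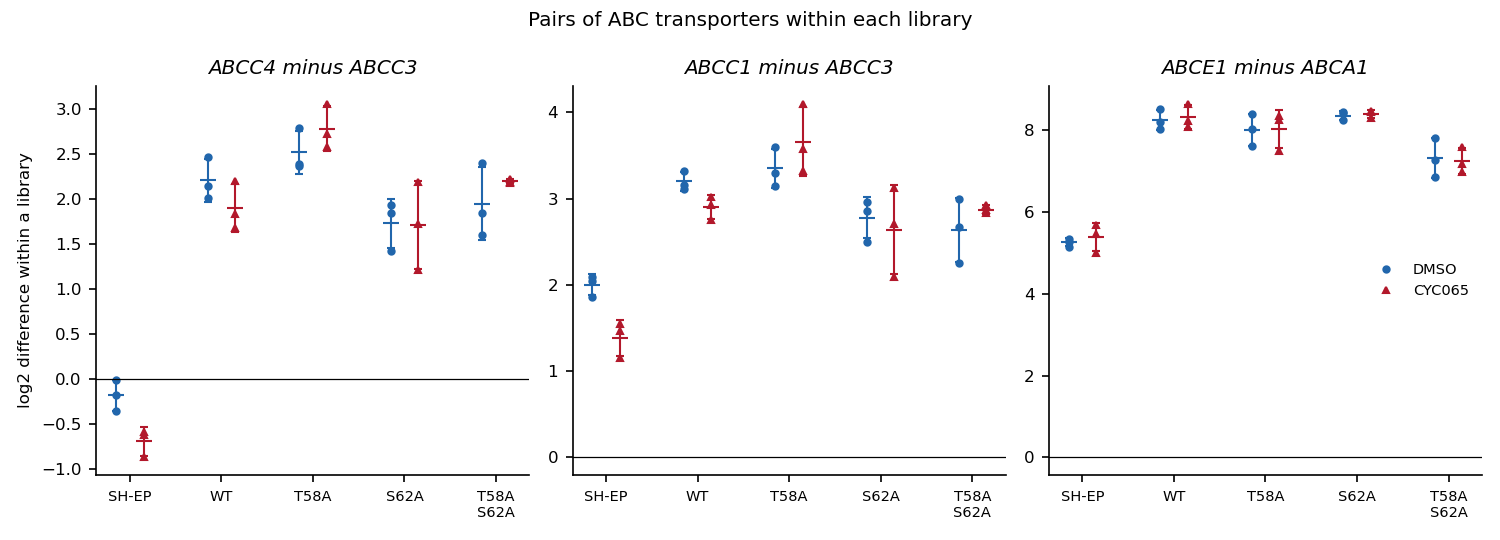
Log2 difference between 2 transporters within each library (vertical axes) for SH-EP and the MYCN lines, with blue circles for DMSO, red triangles for CYC065, and bars for the mean ± SD (n = 3). ABCC4 minus ABCC3 was at most -0.01 in SH-EP DMSO libraries and at least 1.42 in those of the MYCN lines.

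The phosphorylation-deficient mutants were next compared with WT MYCN in DMSO, on FPKM as deposited. The MYCN level itself differed between these lines, with means of 12.9 ± 1.09 FPKM for WT, 8.52 ± 1.29 for T58A, 5.72 ± 0.778 for S62A, and 13.5 ± 3.83 for T58A S62A (SD, n = 3), and its part in these differences was not tested. The drug exporter ABCB1 was at 4.44, 4.90, and 5.93 FPKM in WT. It was at 5.94, 6.37, and 7.98 in T58A and at 6.90, 7.65, and 9.36 in T58A S62A, above all the WT libraries in both. ABCB1 was higher than in WT by 0.40 in T58A (SE 0.12, limma adjusted p = 0.0137) and by 0.64 in T58A S62A (adjusted p = 0.00026). ABCC5 was higher by 0.40 in T58A (SE 0.11, adjusted p = 0.00831) and by 0.32 in T58A S62A (adjusted p = 0.0333). In S62A, ABCB1 was at 0.25 (adjusted p = 0.127) and ABCC5 at 0.12 (adjusted p = 0.479).

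The S62A line differed from WT in other members. ABCC3 was higher by 0.74 (SE 0.21, limma adjusted p = 0.0101), ABCC1 by 0.32 (SE 0.06, adjusted p = 0.000778), and ABCC4 by 0.26 (SE 0.09, adjusted p = 0.0445), whereas ABCE1 was lower (-0.24, SE 0.07, adjusted p = 0.00839). In S62A all 3 libraries were above those of WT for ABCC3 and for ABCC1, the latter at 21.8, 23.3, and 23.3 FPKM against 18.0, 18.2, and 18.6. In T58A S62A, ABCC1 was lower than in WT (-0.21, adjusted p = 0.0209). In all, 7 of 18 differences were called higher and 2 lower, against a background of 10.1% and 13.8% of genes over these 3 contrasts, which share the WT libraries. A limma fit restricted to the WT line and 1 mutant line called 2 higher and 0 lower. On the spike-in scale 5 were called higher and 3 lower, against 10.5% and 25.4% of genes, and the median gene was at 0.28 for T58A, -0.71 for S62A, and 0.39 for T58A S62A. ABCC1 (-0.38) and ABCC4 (-0.43) in S62A and ABCC1 (0.22) in T58A S62A had the opposite sign on that scale, and ABCC3 in S62A was at 0.07. Relative to the median gene, ABCC1 in S62A was 0.33 above it, ABCC4 0.28 above it, and ABCC3 0.78 above it. ABCB1 and ABCC5 kept their direction in T58A (0.70 and 0.71) and in T58A S62A (1.06 and 0.74).

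Leaving out 1 library changed 7 of the 9 calls. Without WT DMSO library 1, ABCB1 in T58A (0.31, limma adjusted p = 0.0915), ABCC5 in T58A S62A (0.29, 0.106), and ABCC4 in S62A (0.19, 0.234) were lost. ABCB1 in T58A was also lost without T58A DMSO library 1 (0.28, 0.113), and ABCC5 in T58A without T58A DMSO library 3 (0.31, 0.0649). ABCC5 in T58A S62A was lost without WT DMSO library 2 or 3 (0.34, 0.0613 and 0.0542), or T58A S62A DMSO library 1 or 2 (0.33, 0.0674, and 0.24, 0.15). For S62A, ABCC3 was lost without S62A DMSO library 3 (0.64, 0.0511), and ABCE1 without WT DMSO library 3 (-0.18, 0.0549) or S62A DMSO library 2 (-0.20, 0.0601). ABCC4 in S62A was lost in 10 of 30 such fits: besides WT DMSO library 1, those without WT DMSO library 2 (0.0838) or S62A DMSO libraries 1 (0.207) or 2 (0.0755), and, at 0.0506 to 0.0511, those without SH-EP DMSO library 3, T58A DMSO library 3, any S62A CYC065 library, or T58A S62A CYC065 library 3. ABCC1 in T58A S62A was lost without WT DMSO library 2 (-0.19, 0.0686) or T58A S62A DMSO library 2 (-0.17, 0.0819), and without WT DMSO library 3 ABCB1 was called in S62A (0.36, 0.0319). ABCB1 in T58A S62A and ABCC1 in S62A were called in all 30 fits.

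The other ABC genes give the setting of these 8. Of 40 further family members, 18 passed the filter, and for the mean of the MYCN lines 8 were higher, 5 were lower, and 5 were not called by limma, with a median difference of -0.05. For the same contrast 34.6% of all genes were higher and 26.3% lower. In all 4 lines at once, ABCF2 (0.85, SE 0.04), TAP2 (0.57, SE 0.05), and ABCF1 (0.29, SE 0.06) were higher, with limma adjusted p-values of 7.26e-16 to 0.000133. TAP2 is a subunit of the peptide transporter of antigen processing, and the ABCF proteins, like ABCE1, lack membrane domains and act with ribosomes. On the spike-in scale all 3 were lower (-0.40, -0.68, and -0.96). ABCA8, a lipid transporter, was at 6.26 to 7.48 FPKM in the SH-EP DMSO libraries and at 0.117 to 0.758 in the 12 of the MYCN lines. It passed the filter through SH-EP, so that its test is not given, and it counts among the 5 lower.

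**Figure D4:**
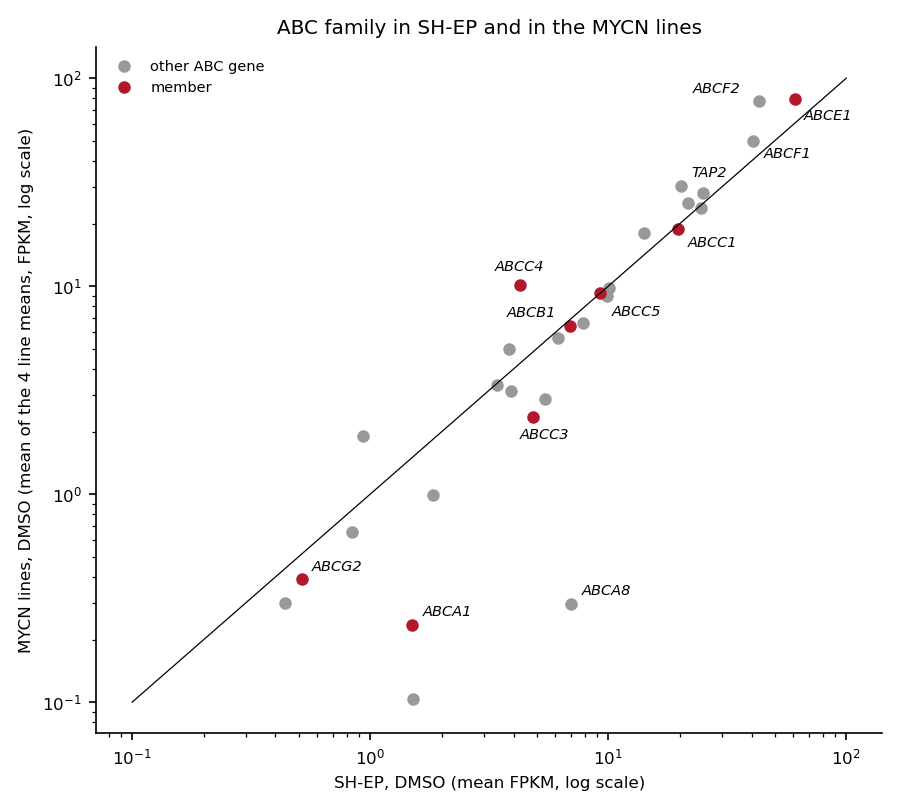
Mean FPKM (log scale) in SH-EP DMSO libraries (horizontal axis) and the mean of the 4 MYCN-line means in DMSO (vertical axis) for the 29 of 48 ABC genes with at least 0.1 FPKM on both axes, with the 8 members in red and the line of equal levels drawn. ABCC4 lay above the line, at 4.26 and 10.1 FPKM, and ABCC3, ABCA1, and ABCA8 below it.

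Genes that work with individual transporters were counted from lists. Of 10 ribosome recycling and rescue genes, the process of ABCE1, 6 were higher and 3 lower for the mean of the lines (median 0.18, against 0.06 for all genes), where 34.6% of all genes were higher and 26.3% lower. EIF3J, a translation factor that acts with ABCE1 in recycling, was higher by 0.74 (SE 0.05, limma adjusted p = 7.21e-12), and ZNF598, a sensor of collided ribosomes, by 0.50. PELO, which rescues stalled ribosomes with ABCE1, was lower (-0.48, SE 0.06, adjusted p = 1.58e-07). Of 11 tested cholesterol efflux and LXR pathway genes, the setting of ABCA1, 3 were higher and 5 lower (median -0.23). They included the HDL receptor SCARB1 (1.61, SE 0.05, adjusted p = 7.59e-18) and the nuclear receptor RXRA (0.46) among the higher, and the lysosomal cholesterol exporters NPC2 (-1.50) and NPC1 (-0.44) among the lower. Of 15 glutathione genes, only some of which form conjugates that ABCC1 exports, 5 were higher and 6 lower (median -0.12). GCLC, the catalytic subunit for glutathione synthesis (1.27, SE 0.19), and the reductase GSR (0.85) were the 2 highest, and the transferase GSTM2 (-1.04) was among the lower. The transferase GSTM3 was at 2.22 to 2.53 FPKM in the SH-EP DMSO libraries and at 0.523 to 0.898 in those of the MYCN lines. It passed the filter through SH-EP, so that its test is not given, and it counts among the 6 lower. On the spike-in scale, EIF3J (-0.51), ZNF598 (-0.75), RXRA (-0.78), and GSR (-0.40) were lower than in SH-EP, GCLC was at 0.03, and SCARB1 was still higher (0.37, adjusted p = 0.031).

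Across the 10 group means, the gene most like ABCC4 was LRPPRC, with ABCF2 next (Pearson r = 0.983 each). EIF4G1 and APOC1 were the closest to ABCE1 (0.977 each), IFNAR1 (0.981) and C6orf89 (0.978) to ABCC3, and DPYSL3 and ALDH2 (0.979 each) to ABCC1. For ABCB1 they were SEC31B (0.944) and KYNU (0.934), and for ABCC5 RDH11 (0.949) and CBY1 (0.927). These are the highest of 11575 genes over 10 points that share lines and treatments, and are given as a description.

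The last comparison was CYC065 against DMSO. CDK9 drives the elongation of transcripts, and values were therefore set on the spike-in scale, which is relative to the spike-ins added per cell number and carries the limit given above. ABCE1 was at 188, 191, and 204 scaled FPKM in the SH-EP DMSO libraries and at 78.7, 94.2, and 95 with CYC065. In WT it was at 94.9, 114, and 122 in DMSO and at 39.5, 45.8, and 48.0 with CYC065. Its CYC065 libraries were below the DMSO libraries in all 5 lines. The same held for ABCC1, ABCC4, ABCC5, and ABCB1, which makes 5 of the 8 genes, and 68.5% of the genes past the filter behaved in this way. On the log2 scale ABCE1 decreased by 1.13 in SH-EP and 1.31 in WT, and among the mutants by 0.96 (T58A), 1.14 (S62A), and 0.77 (T58A S62A) (SE 0.16 each), with limma adjusted p-values of 1.51e-08 to 7.3e-05. For the mean of the MYCN lines, the differences were -1.04 for ABCE1, -1.12 for ABCC5, -1.11 for ABCB1, -0.97 for ABCC1, and -0.95 for both ABCC4 and ABCC3, with SE of 0.08 to 0.13. The median of all genes was -1.23, lower than each of the 6.

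Over the 6 genes and 5 lines, 29 of 30 differences were called lower and 0 higher (also 0 at an unadjusted p under 0.05), against 84% and 1.15% of genes over the same contrasts. The exception was ABCC3 in SH-EP, at 14.5, 15.4, and 16.0 scaled FPKM in DMSO and 11.9, 16.3, and 17.6 with CYC065 (-0.02, SE 0.26, limma adjusted p = 0.949), 1.04 above the median gene of that line. ABCC4 in SH-EP (-0.54, SE 0.20, adjusted p = 0.0162) lost its call without SH-EP DMSO library 1 (-0.44, 0.0747) or SH-EP CYC065 library 3 (-0.40, 0.101). ABCA1 and ABCG2, tested by exact permutation of treatment within lines, were at -0.70 (p = 6.25e-05) and -0.84 (p = 0.000107), each with p = 0.000427 after adjustment over the 8 tests. The median of the genes past the filter was -0.97 to -1.57 by line. Both sizes depend on the pseudocount, at -0.32 and -0.33 with 1 and at -0.94 and -1.02 with 0.01. On FPKM as deposited, ABCA1 was at 0.24 (exact permutation p = 0.0233) and ABCG2 at 0.20 (p = 0.209).

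On FPKM as deposited, which gives each gene relative to the rest of its library, the members stood higher with CYC065: 21 of the 30 differences were called higher and 0 lower (22 and 0 at an unadjusted p under 0.05), against 39% and 34% of all genes. ABCC3 in SH-EP went from 4.77, 4.80, and 4.87 FPKM to 10.2, 11.4, and 12.4 with CYC065, without overlap. It was 2.35 times higher (log2 difference 1.21, SE 0.21, adjusted p = 1.03e-05). In the MYCN lines, ABCC3 differed by 0.78 in WT (adjusted p = 0.00168) and by 0.06 to 0.43 in the others (adjusted p = 0.0613 to 0.815). ABCC1 was called in all 5 lines on this scale, from 0.30 in S62A to 0.59 in SH-EP, and so was ABCC4, from 0.33 in T58A to 0.70 in SH-EP.

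**Figure D5:**
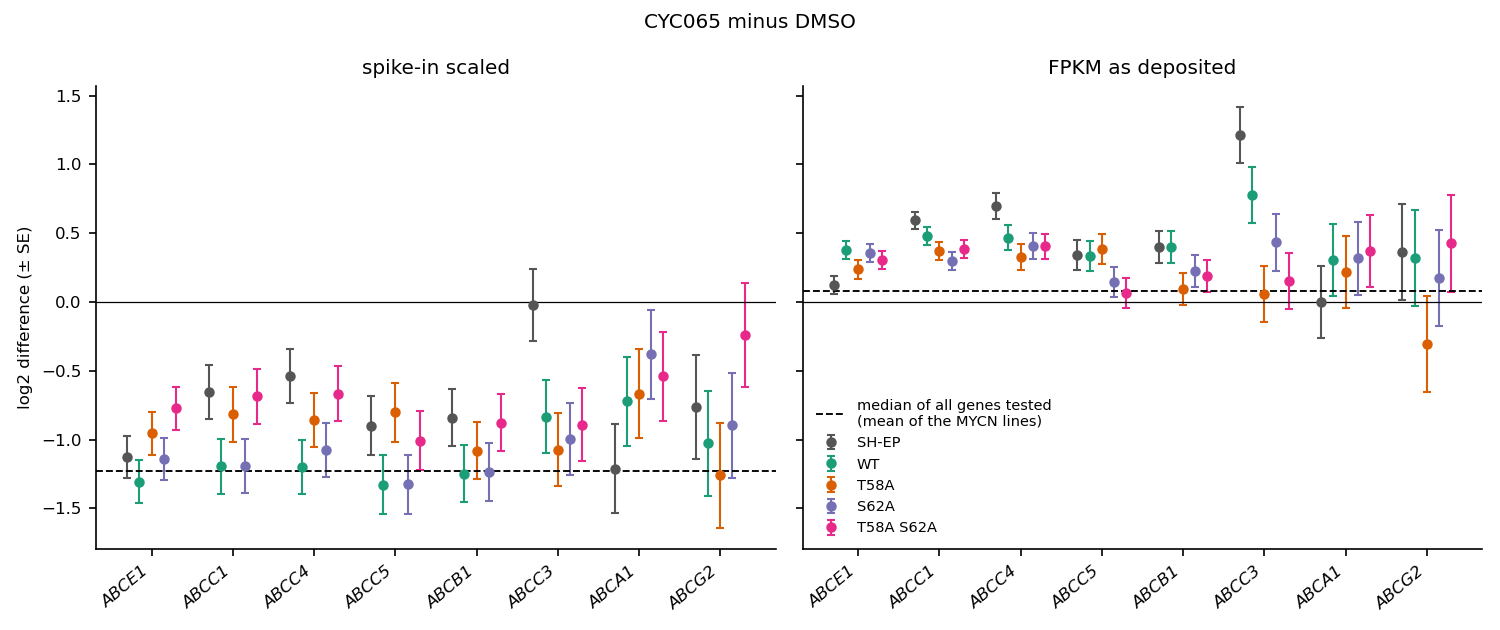
Log2 difference (± SE, vertical axis) between CYC065 and DMSO in each line (colors) for the 8 genes, on spike-in scaled FPKM (left) and FPKM as deposited (right). ABCA1 and ABCG2 are from the fit without the filter on low values; the dashed line is the median of all genes tested for the mean of the MYCN lines (-1.23 and 0.08), and ABCC3 in SH-EP stood at -0.02 on the left and 1.21 on the right.

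Whether a MYCN line responded to CYC065 otherwise than SH-EP was tested as an interaction. On the spike-in scale, limma called 0 of 24 differences in response, against 7.77% of genes, and 5 had an unadjusted p under 0.05, those of ABCC3 in all 4 lines and of ABCC4 in WT. For ABCC3 the response was lower than in SH-EP by 0.93 for the mean of the 4 lines (SE 0.29, adjusted p = 0.0597). It was called without SH-EP CYC065 library 3 (-1.10, adjusted p = 0.0437), and in S62A without S62A CYC065 library 1 (-1.28, 0.0447). ABCC4 in WT (-0.66, adjusted p = 0.0781) was called without SH-EP CYC065 library 3 (-0.80, 0.0434), WT DMSO library 2 (-0.78, 0.0419), or T58A DMSO library 2 (-0.66, 0.0338). On FPKM as deposited 5 of 24 were called, against 25.6% of genes. These were ABCC3 in T58A (-1.15) and T58A S62A (-1.06), ABCC4 in T58A (-0.37), and ABCC1 in S62A (-0.30), all lower than in SH-EP, and ABCE1 in WT (0.26), which was higher. The within-library difference of ABCC1 minus ABCC3, on FPKM as deposited, changed with CYC065 by -0.10 over the 5 lines (exact permutation p = 0.392). That of ABCE1 minus ABCA1 changed by 0.04 (exact permutation p = 0.729). The latter depends on the pseudocount, at 0.21 with 1 and -0.06 with 0.01, and it was not computed on the spike-in scale. For ABCC1 minus ABCC3 the lines went both ways, with lower means in SH-EP (2.0 to 1.38), WT (3.20 to 2.90), and S62A (2.78 to 2.64) and higher ones in T58A (3.35 to 3.66) and T58A S62A (2.64 to 2.87), and these were not tested line by line.

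Among the other ABC genes, 17 of 18 were lower with CYC065 and 0 higher for the mean of the MYCN lines on the spike-in scale (median -1.04), against 94.1% and 1.73% of all genes. Among the lowest were ABCF3 (-2.42, SE 0.10) and ABCF1 (-1.95, SE 0.10), with limma adjusted p-values of 1.38e-18 and 2.16e-16. ABCC2, an exporter of conjugates in liver and kidney, passed the filter through its MYCN-line DMSO libraries, so that its test is not given. It counts among the 17 lower. On the deposited scale its median went from 1.68 FPKM in those libraries to 0.99 with CYC065, and from 0.933 to 0.888 in SH-EP. ABCF3 and ABCF1 were lower on the deposited scale too (-1.07 and -0.59), where the 6 tested members were at 0.23 to 0.40. Most of the other ABC genes went the way of the members on that scale. Of the 18, 12 were called higher and 5 lower (median 0.31), against 45.4% and 39.6% of all genes. All 10 ribosome recycling genes were lower (median -1.25), among them ZNF598 (-1.96). All 15 glutathione genes were lower, but their median was -0.71, against -1.23 for all genes. On the deposited scale 11 of the 15 were called higher and 1 lower (median 0.60). In SH-EP, 6 of the 15 were called lower on the spike-in scale, against 75.7% of all genes. GCLC stood apart from the list and fell by 4.31 (SE 0.12, limma adjusted p = 1.21e-21). Its partner subunit GCLM, at -1.33, was at 0.04 on the deposited scale. Of the cholesterol efflux genes, 10 of 11 were lower (median -1.04), led by RXRA (-2.90) and RXRB (-2.22). APOE, an apolipoprotein that carries cholesterol, passed the filter through its CYC065 libraries, so that its test is not given. On the deposited scale its median went from 0.353 FPKM in the MYCN-line DMSO libraries to 4.34 with CYC065, and from 0.447 to 1.82 in SH-EP.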

How the data were processed

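RNA-Seq of SH-EP and 4 MYCN lines (3 libraries for each of 10 groups) was used as deposited. ERCC spike-ins had been added in proportion to cell number. The authors prepared strand-specific libraries, aligned reads to hg19 with HISAT2, and computed FPKM with Cufflinks. The annotation is not given in the sources used here. The deposited FPKM are not scaled to spike-ins and carry no read counts, so counting intervals cannot be given and no count test was run. Of the columns, 0 belonged to other samples. Column names give line and treatment, but their numbers do not match those of the labels, so libraries were numbered by column order, as names only.

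The 8 genes, the gene lists, and the tests were chosen with earlier results of these data known. The 11575 of 26228 genes whose mean reached 1 FPKM were put on the log2(FPKM + 0.1) scale and fitted over all 10 groups with limma (version 3.58.1, in R version 4.3.3). The threshold was a Benjamini-Hochberg adjusted p under 0.05. This scale understates changes of low genes. Lines were compared on deposited FPKM. CYC065 was compared after scaling each library to the median log2 level of 55 spike-ins. Single values were tested by exact two-sided permutation. Between the MYCN lines and SH-EP, this permutation ignored which line a library came from. The tests of ABCA1 and ABCG2 were added after their low values were seen. Other ABC genes were named if called with the same sign in each of the 4 MYCN lines (up to 5 each way) or among the 3 with the largest CYC065 change each way. From each list the 2 highest and 2 lowest called genes were named, and for likeness the 2 genes with the highest r. Some genes that this rule names are not reported here. Positions are from GENCODE 44 lifted to GRCh37. Alternatives were other pseudocounts, filters, scalings, centring on the median, fits restricted to the compared groups, a 1.5-fold minimum, and leaving out each library.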

Additional observations from a re-analysis of the deposited data

How the results depend on the processing

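No paired analysis was possible because the numbers in the column names do not match the replicate numbers of the labels, and no source says that libraries with the same number belong together. Of 9 higher and 6 lower calls in the MYCN lines, a spike-in scale left 0 and 21 and a 1.5-fold minimum 4 and 3. No filter gave 11 lower calls, and a filter at 5 FPKM gave 2. For the mutants against WT (7 and 2), both a fit of only the groups compared and the 1.5-fold minimum gave 2 and 0, and leaving out 1 library gave 4 to 7 and 1 to 2. With CYC065 (0 higher, 29 lower), deposited FPKM gave 21 and 0 and centring 27 and 0. Interaction calls (0) became 5 on either of these scales and ranged from 0 to 1 with 1 library left out. The cause was not tested.

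Directions turned for these values on deposited FPKM and after centring, respectively. For the mean of the MYCN lines with CYC065 they were 0.23 and 0.40 for ABCB1, 0.38 and 0.55 for ABCC1, 0.36 and 0.52 for ABCC3, 0.40 and 0.57 for ABCC4, 0.23 and 0.40 for ABCC5, and 0.32 and 0.49 for ABCE1. In SH-EP they were 0.40 and 0.54 for ABCB1, 0.59 and 0.73 for ABCC1, 1.21 and 1.35 for ABCC3, 0.70 and 0.83 for ABCC4, 0.34 and 0.48 for ABCC5, and 0.12 and 0.26 for ABCE1. ABCA1 was at 0.24 and ABCG2 at 0.20 on deposited FPKM. Spike-in scaling took the difference from SH-EP to 0.00 for ABCC4 and -0.87 for ABCE1. ABCE1 minus ABCA1 with CYC065 (0.04) was 0.21 with a pseudocount of 1 (exact permutation p = 0.000783), -0.06 with 0.01, and -0.01 to 0.09 without 1 library. Of the other values recomputed for named genes, 214 stayed on their side of the threshold, 11 came to pass it, and 3 no longer did. Without 1 library, sign changed among values not called for ABCC3 with CYC065 in SH-EP (0.15), ABCC5 against SH-EP (0.02), and ABCE1 in the response (-0.01). For comparisons, 64 recomputed values stayed on their side of the threshold or, for counts, within 1.5 times. Within-library differences between the MYCN lines and SH-EP kept their direction and call under each alternative run, which did not include spike-in scaling. Depth is known only relatively, so levels under 1 FPKM, those of ABCA1 and ABCG2, are the least certain.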
